A study of Mus musculus with 2 samples.

Results

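Of the 8139 gene symbols in the deposited table, 5 are described here: Cdh2, Vcan, Spp1, Palld and Dst, which encode a cadherin, a pair of extracellular matrix proteins and a pair of cytoskeletal linkers. They were chosen from a reading of the expression values themselves, as adhesion, matrix and cytoskeleton genes that stood apart between the libraries, so their differences are given as a description with no test. RNA was sequenced from mast cells that had been derived from C57BL/6 bone marrow, with 1 wild type (WT) library and 1 library of cells without Tet2 (Tet2-/-), an enzyme that oxidises 5-methylcytosine in DNA. Both cultures were grown from femoral marrow for 4 to 6 weeks in 10% serum with interleukin-3 at 10 ng/ml and stem cell factor at 5 ng/ml, and were used at a purity above 97.5%, judged by surface IgE receptor and c-Kit. The labels do not give the number or age of the mice, whether marrow was pooled, or how the Tet2 allele was made. Tet2, Kit, Fcer1a and Ms4a2 were not analysed here, so neither the genotype nor the defining mast cell receptors could be checked. No difference below can be checked against replicates.

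Cells hold to each other and to their surroundings through layered protein assemblies. Cadherins bind the same cadherin on a neighbouring cell and are tied to actin inside the cell by catenins, whereas integrins and CD44 bind the surrounding matrix, whose proteoglycans and glycoproteins include versican and osteopontin. Palladin cross-links actin filaments, and plakins such as dystonin link intermediate filaments, actin and microtubules to one another and to junctions. Mast cells live in connective tissue, where such contacts hold them in place, and their granules are packed with heparan and chondroitin sulfate proteoglycan.

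The 5 genes split into 3 that were lower and 2 that were higher in the Tet2-/- library. RPKM is the number of reads per kilobase of gene model, scaled to the mapped reads of the library. Comparisons of level between genes are rough, because values of genes with several transcripts may be sums over transcripts of different lengths. In WT the order was Cdh2, Vcan, Spp1, Dst and Palld, from 39.0 down to 0.417 RPKM, a range of 93.5-fold. In Tet2-/- it was Spp1, Cdh2, Palld, Vcan and Dst, from 27.8 down to 1.19 RPKM, a range of 23.3-fold. Of neighbours in these orders, the counting intervals overlapped for 1 pair alone, Palld and Vcan in Tet2-/-, at 5.10 and 4.84 RPKM. Spp1 stood at 0.188 of the Cdh2 level in WT and at 3.08 times it in Tet2-/-. Counting intervals, in brackets below, are 95% intervals that cover counting error only, not the spread between cultures or mice, and rest on 31100000 fragments in WT and 32000000 in Tet2-/-, depths inferred from the spacing of low values.

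**Figure D1:**
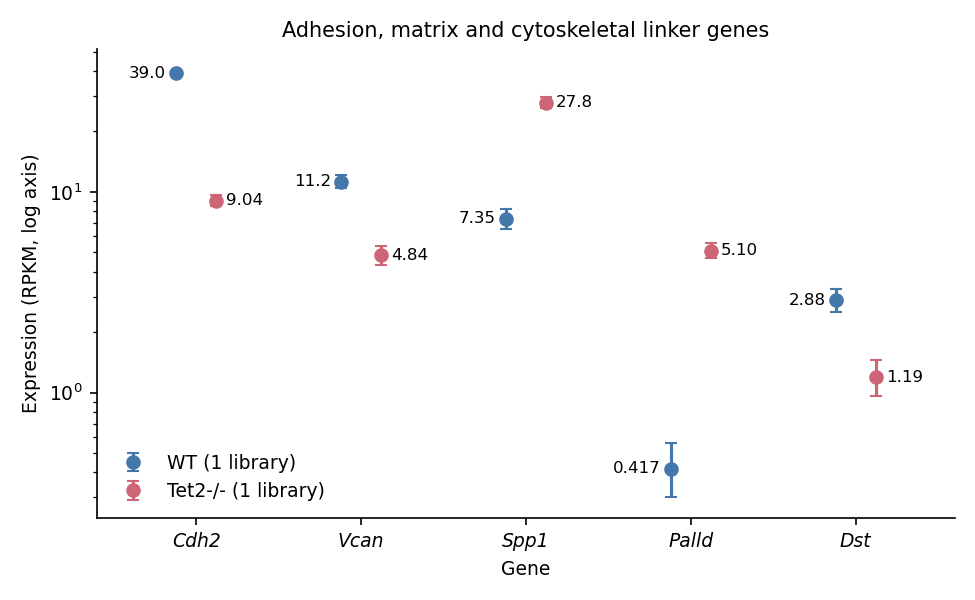
RPKM of the 5 genes (log axis) in the WT and the Tet2-/- library, 1 point per library, with exact 95% Poisson intervals that cover counting error only. Cdh2, Vcan and Dst are lower in Tet2-/- (9.04, 4.84 and 1.19 RPKM) than in WT (39.0, 11.2 and 2.88 RPKM), and Spp1 and Palld are higher (27.8 and 5.10 against 7.35 and 0.417 RPKM).

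Over the whole table, 4.51% of the 2107 gene models whose mean reached 1 RPKM lay 2-fold or more apart on the log2(RPKM + 1) scale, 2.90% higher and 1.61% lower in Tet2-/-, and their median log2 fold was 0.01. By that rule of size Spp1 and Palld counted as higher, Cdh2 and Vcan as lower, and Dst, with a log2 fold of -0.83, as neither. These counts follow from how the genes were chosen and say nothing about them as a group. All 5 passed the filter on the mean, but Palld did so through the Tet2-/- library alone, so it could pass only by differing. The added 1 RPKM weighs on weak genes. With 0.1 added in its place the log2 fold of Dst was -1.21, past 2-fold, and with 5 added those of Vcan and Palld were -0.72 and 0.90, short of it.

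**Figure D2:**
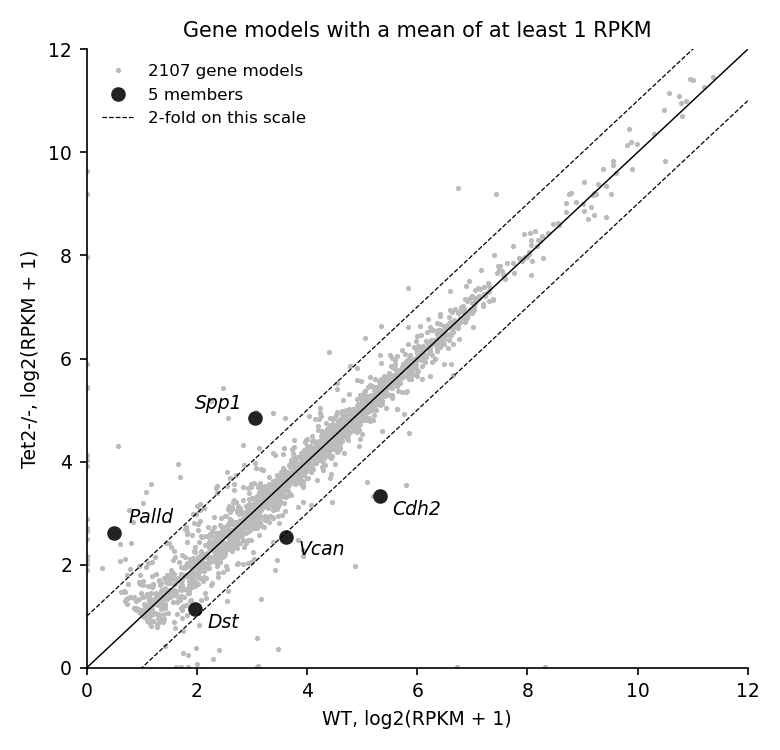
log2(RPKM + 1) in WT (x axis) and Tet2-/- (y axis) for the 2107 gene models whose mean reached 1 RPKM (grey) and the 5 genes (black). Spp1 and Palld lie above the upper dashed 2-fold line, Cdh2 and Vcan below the lower one, and Dst, at -0.83, between the lower line and the diagonal.

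Cdh2 encodes N-cadherin, a classical cadherin known from neural, cardiac and mesenchymal cells. The gene (ENSMUSG00000024304.14) lies on the minus strand of chromosome 18 from 16588877 to 16809246 (mm10), spans 220 kb and has 16 exons in its longest coding transcript. It was at 39.0 RPKM in WT against 9.04 RPKM in Tet2-/-. The WT level was 4.32 times the other (4.04 to 4.63), on an estimated 4389 and 1043 fragments, and the log2 fold was -2.00. In WT it stood above 82.7% of the 2392 protein-coding genes with a value other than 0.01, read here as the value given to models without reads, and in Tet2-/- above 49.2% of 2443. Cdh2 thus went from the upper part of the expressed genes to their middle. An antisense model inside it, Gm15485, was at 0.01 in both libraries.

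Cdh2 was the 1 cadherin past the filter of the 10 listed among 57 cadherin and protocadherin genes. Of the other 9, Cdh9, Cdh26, Cdhr5, Pcdh8 and Pcdh18 were at 0.01 in both libraries. Pcdh7, a protocadherin gene, was at 0.211 RPKM in WT against 0.772 RPKM in Tet2-/- on an estimated 3 and 12 fragments, and the hair cell cadherin gene Cdh23 at 0.0968 and 0.0161 RPKM on 31 and 5. Both rest on few fragments. Inside the cell, the catenins that tie cadherins to actin were at similar levels. Ctnnb1, the gene of beta-catenin, was at 127 RPKM in WT against 134 RPKM in Tet2-/-, and Ctnna1, the gene of alpha-catenin, at 116 and 104 RPKM. Pkp4, a plakophilin gene of cell junctions, was at 7.28 and 7.14 RPKM. Pkp1, a desmosomal plakophilin gene, was at 2.33 and 1.17 RPKM, a log2 fold of -0.62. Counting intervals left out a ratio of 1 for Ctnnb1, Ctnna1 and Pkp1, and included it for Pkp4. None of the 4 adherens junction genes past the filter, of 5 listed among 27, lay 2-fold apart, and their median log2 fold was -0.10. Of all models past the filter 4.51% lay 2-fold apart, so with so few genes the count is near that share.

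Integrins include receptors for matrix proteins such as osteopontin. The integrin genes past the filter were also close between the libraries. Itgb7, a beta chain of mast cell and lymphocyte integrins that serves homing to the gut, was at 106 RPKM in WT against 98.9 RPKM in Tet2-/-. Itga5, a chain of the fibronectin receptor, was at 13.1 RPKM in both, and Itgal, the alpha chain of LFA-1, at 3.83 and 3.91 RPKM. The counting interval of Itgb7 left out a ratio of 1, and those of Itga5 and Itgal included it. The 3 integrin genes past the filter, of 4 listed among 28, had a median log2 fold of 0.01, which was -0.000773 under median-ratio scaling. Itga11, a collagen receptor chain, was the one below the filter, at 0.00669 and 0.0130 RPKM, which stand for about 1 and 2 fragments. The remaining integrin subunit genes and Cd44 were not analysed here.

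The matrix genes went in opposite directions. Vcan encodes versican, a large chondroitin sulfate proteoglycan that binds hyaluronan. The gene (ENSMUSG00000021614.16) lies on the minus strand of chromosome 13 from 89655312 to 89742509 and has 8 annotated coding transcripts, the longest of 12427 bases. It was at 11.2 RPKM in WT against 4.84 RPKM in Tet2-/-. The WT level was 2.32 times the other (2.03 to 2.65) and the log2 fold was -1.07. It stood above 53.9% of detected protein-coding genes in WT and above 39.3% in Tet2-/-.

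Spp1 encodes osteopontin, a secreted phosphoprotein that binds integrins and CD44 and is made by bone cells, macrophages and other immune cells. The gene (ENSMUSG00000029304.14) lies on the plus strand of chromosome 5 from 104435118 to 104441050, and with a span of 5.93 kb it is the shortest of the 5. It was at 7.35 RPKM in WT against 27.8 RPKM in Tet2-/-, which is 3.79 times as high (3.32 to 4.33) on an estimated 283 and 1097 fragments, and the log2 fold was 1.79. It stood above 44.4% of detected protein-coding genes in WT and above 76.0% in Tet2-/-. Vcan was at 1.53 times the Spp1 level in WT, whereas Spp1 was at 5.75 times the Vcan level in Tet2-/-.

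Of the other proteoglycan and hyaluronan genes, 1 passed the filter. Gpc2, a glypican gene, was at 1.53 RPKM in WT against 0.903 RPKM in Tet2-/-, while Acan, Ogn, Has1 and Cspg4 were at 0.01 in both. Of the other matrix glycoproteins, Lama5, a laminin chain gene, was at 11.5 and 9.13 RPKM, and Col6a3, a collagen VI chain gene, at 1.45 and 1.07 RPKM. Neither lay 2-fold apart, where 4.51% of all models past the filter did. Mepe, which lies near Spp1 and belongs to the same family of secreted phosphoproteins, was at 0.01 in both libraries, as were Postn, Thbs2, Mfap2, Lama1 and Col1a2. The shedding protease gene Adam17 was at 30.4 and 27.1 RPKM, and it was the 1 matrix protease or inhibitor gene past the filter, of 8 listed among 39.

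Genes that build sulfated sugar chains on proteoglycans were mostly near each other in the libraries. Ndst2, the sulfotransferase gene needed for mast cell heparin, was at 228 RPKM in WT against 246 RPKM in Tet2-/-. Ndst3, a related sulfotransferase gene, stood at 9.41 RPKM in WT against 17.0 RPKM in Tet2-/-, 1.80 times as high (1.62 to 2.01) and the widest difference among the 4 genes of this list past the filter, of 5 listed among 34. B3galt6, which acts on the linker of the chains, was at 3.63 and 4.82 RPKM, and the heparan sulfotransferase gene Hs2st1 at 10.8 and 9.22 RPKM. None of the 4 lay 2-fold apart, where 4.51% of all models past the filter did, and their median log2 fold was 0.22.

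Tet2 acts on methylated CG pairs, so the letters before the annotated starts of the members are shown with each CG in capitals. Methylation was not measured here, and a count of CG pairs does not show where Tet2 acted. RefSeq promoter windows (GRCm38.p6) matched 4 of the 5 members: Vcan, Spp1, Palld and Dst. Each line gives the 250 bases before a start, 5′ to 3′ on the strand of the gene. The Vcan window is chr13:89742513-89742762 (minus strand) and the first of the 2 Spp1 windows is chr5:104434861-104435110 (plus strand). Vcan holds 10 CG pairs and Spp1 3, and 62.2% and 29.0% of all 32851 windows hold fewer. The median of all windows is 6.

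Vcan: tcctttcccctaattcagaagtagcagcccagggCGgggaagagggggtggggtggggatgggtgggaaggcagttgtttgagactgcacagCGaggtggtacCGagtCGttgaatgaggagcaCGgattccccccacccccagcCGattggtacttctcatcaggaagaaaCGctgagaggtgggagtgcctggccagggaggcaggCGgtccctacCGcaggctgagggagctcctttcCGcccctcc

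Spp1: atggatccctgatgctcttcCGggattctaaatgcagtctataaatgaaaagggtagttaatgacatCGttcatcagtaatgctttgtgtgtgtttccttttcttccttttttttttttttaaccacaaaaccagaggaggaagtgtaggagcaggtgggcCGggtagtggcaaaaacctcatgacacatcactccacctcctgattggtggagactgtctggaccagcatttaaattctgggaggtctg

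Palld encodes palladin, an actin cross-linking scaffold of stress fibres and focal adhesions. The gene (ENSMUSG00000058056.16) lies on the minus strand of chromosome 8 from 61511433 to 61902690, spans 391 kb and has 5 annotated coding transcripts. It was at 0.417 RPKM in WT against 5.10 RPKM in Tet2-/-, which is 12.2 times as high (8.98 to 17.0), on an estimated 44 and 553 fragments. This was the widest ratio among the 5 genes. The log2 fold was 2.11, and of the 1767 protein-coding genes of at least 500 bases past the filter, 7 had a higher one. That rank follows from how Palld was chosen and from its passing the filter through Tet2-/- alone, so it is no evidence about the gene. Palld stood above 21.7% of detected protein-coding genes in WT and above 39.9% in Tet2-/-, so it was a weakly expressed gene in both.

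Dst encodes dystonin, also called bullous pemphigoid antigen 1, a giant plakin with epithelial, neuronal and muscle isoforms. The gene (ENSMUSG00000026131.18) lies on the plus strand of chromosome 1 from 33908225 to 34308661, spans 400 kb and has 14 annotated coding transcripts, the longest with 98 exons and 23279 bases. It was at 2.88 RPKM in WT against 1.19 RPKM in Tet2-/-. The WT level was 2.42 times the other (1.89 to 3.11), on an estimated 222 and 94 fragments if the shortest coding transcript was the one expressed, and on 2073 and 882 if the longest was, when the interval is 2.23 to 2.62. Dst was at 6.91 times the Palld level in WT, and Palld at 4.27 times the Dst level in Tet2-/-. The table gives 1 value per gene, so a change in total output and a change in which transcript is used cannot be told apart for these genes. Vcan, Palld and Dst also overlap annotated models on the opposite strand, whose reads cannot be told apart from theirs, and the 2 of these that are listed, Gm26788 and A930005N03Rik in Dst, had 0.0302 and 0.0597 RPKM in WT against 0.01 in Tet2-/-.

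Other cytoskeletal genes lay closer together in the libraries. Actb and Actg1, the cytoplasmic actin genes, stood at 1879 and 621 RPKM in WT against 2029 and 664 RPKM in Tet2-/-, although both have close copies that may share reads. Tpm4, a tropomyosin gene, was at 4.22 and 2.58 RPKM, a log2 fold of -0.54. Apart from Palld, none of the 3 genes of the palladin and actin cross-linker list past the filter, of 5 listed among 48, lay 2-fold apart. Over all models past the filter 4.51% did, so with so few genes the count is near that share. Lmna, the gene of the nuclear lamins A and C, was at 57.1 and 63.1 RPKM, and the microtubule-binding protein genes Clip2 and Clasp1 at 13.7 and 9.72 RPKM in WT and 13.5 and 9.42 RPKM in Tet2-/-. The counting intervals of Clip2 and Clasp1 included a ratio of 1, whereas those of Actb, Actg1, Tpm4 and Lmna left it out. Other plakin genes were not analysed here. At focal adhesions, Ilk, the integrin-linked kinase gene, was at 83.9 and 82.1 RPKM, its adaptor partner Lims1 at 35.7 and 34.8 RPKM, and the tensin gene Tns2 at 1.58 and 1.71 RPKM, all with intervals that included 1.

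The Palld windows differ in their CG content. The first, chr8:61902708-61902957 (minus strand), lies at the distal start and holds 2 CG pairs, fewer than the median window, and that at chr8:61591140-61591389 lies at an internal start and holds 13. The other Palld window holds 6. Of the 2 Dst windows, chr1:34011345-34011594 (plus strand) holds 22 CG pairs, more than 85.2% of all windows, and the other holds 5. Both lie inside the gene, 103 and 252 kb past its outermost start in GENCODE, and their RefSeq starts are 218 and 70 bases before the nearest GENCODE start. For these 2 windows the RefSeq bases just after the start were not found in a GENCODE transcript of the gene, as they were for the other 6. The bases searched lie before those nearest GENCODE starts, so the miss largely restates that distance. Which start was used in these cells is not given by the table.

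Palld, distal start: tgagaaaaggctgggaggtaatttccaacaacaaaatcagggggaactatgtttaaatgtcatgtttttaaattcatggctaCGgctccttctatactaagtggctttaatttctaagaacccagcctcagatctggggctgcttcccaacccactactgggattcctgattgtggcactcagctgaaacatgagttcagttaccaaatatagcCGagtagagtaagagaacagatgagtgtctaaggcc

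Palld, internal start: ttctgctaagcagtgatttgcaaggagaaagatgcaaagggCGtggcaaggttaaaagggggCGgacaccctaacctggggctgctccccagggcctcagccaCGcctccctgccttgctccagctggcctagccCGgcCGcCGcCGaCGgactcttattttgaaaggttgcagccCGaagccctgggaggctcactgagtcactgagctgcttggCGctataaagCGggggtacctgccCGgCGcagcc

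Dst, internal RefSeq start: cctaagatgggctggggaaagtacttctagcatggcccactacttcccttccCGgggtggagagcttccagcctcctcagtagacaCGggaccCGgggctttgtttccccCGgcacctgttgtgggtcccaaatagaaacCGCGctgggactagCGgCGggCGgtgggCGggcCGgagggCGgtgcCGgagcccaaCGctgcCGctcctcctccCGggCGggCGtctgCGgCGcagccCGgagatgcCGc

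Short motifs were searched on both strands of the 8 windows of these genes: AGATAA, bound by GATA factors, CATGTG, an E-box bound by MITF, TTCNNNGAA, bound by STAT factors, and TGANTCA, bound by AP-1. The distal Palld window holds TTCNNNGAA once and the internal one TGANTCA once, and the other windows hold none of these. Of all windows, 9.99% hold AGATAA, 12.3% CATGTG, 7.02% TTCNNNGAA and 6.75% TGANTCA. A match is a description of letters, not a site, and a motif missing from 250 bases says nothing about the factor elsewhere.

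Over the 10 pathway lists together, 70 of 410 distinct genes are listed and 29 passed the filter. Spp1 and Palld were the 2 that counted as higher, and Cdh2 and Vcan the 2 that counted as lower. Of the other 24 genes past the filter, leaving out all 5 members, 0 lay 2-fold apart, where 4.51% of all models did. Ndst3 and Pkp1 were the 2 that lay 1.5-fold or more apart, where 9.44% of all models did, so that the other 22 within 1.5-fold are close to the share over the whole table. The median log2 fold of the 24 was -0.03, beside 0.01 over all 2107 models. The lists were drawn up with earlier results of these data known, and each has few listed genes.

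**Figure D3:**
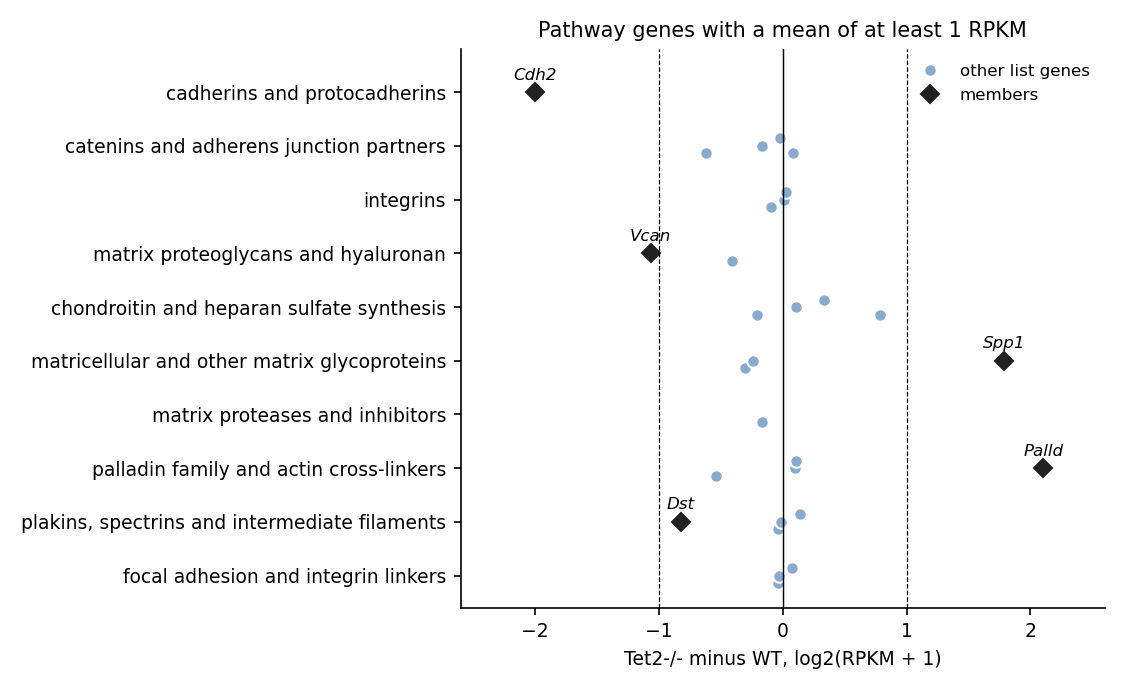
Difference of log2(RPKM + 1), Tet2-/- minus WT, for the 29 genes of 10 pathway lists whose mean reached 1 RPKM (diamonds, members; circles, other genes, set slightly apart in height so that they can be seen). Dashed lines mark 2-fold. None of the 24 circles lies beyond the lines, and 4 of the 5 diamonds do.

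Like Spp1 and Palld, most listed markers of macrophages, monocytes and neutrophils were higher in the Tet2-/- library. Of 17 markers of macrophages and monocytes 5 are listed, all 5 higher without Tet2, and their summed level was 0.985 RPKM in WT against 23.4 RPKM in Tet2-/-, most of it Ly6c2 at 0.479 and 18.8 RPKM. Csf1r, the receptor gene that defines these cells, was at 0.122 and 1.32 RPKM. The 3 listed neutrophil markers of 11 summed to 1.12 RPKM in WT against 10.1 RPKM in Tet2-/-. Ly6g was at 1.10 and 9.61 RPKM, Mpo at 0.01 and 0.458 RPKM, and Csf3r at 0.01 in both. Ly6c2 and Ly6g have close paralogs, which makes their values uncertain, since reads may be shared. The part of these cell types in the Spp1 and Palld differences was not tested, and in a bulk library more cells of a type and more RNA per cell cannot be told apart. Fibroblast and stromal markers, 4 of 14 listed, were at or near 0 and summed to 0.222 RPKM in WT against 0.129 RPKM in Tet2-/-. Col1a2, Postn and Fap were at 0.01 in both libraries and Lepr at 0.192 and 0.0986 RPKM. The 1 listed bone cell marker of 14, Bglap2, was at 0.427 RPKM in WT and 0.01 in Tet2-/-. Of the megakaryocyte and endothelial markers, 2 of 12 are listed, Ppbp at 0.01 in both and the angiopoietin receptor gene Tek at 12.7 and 18.4 RPKM.

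**Figure D4:**
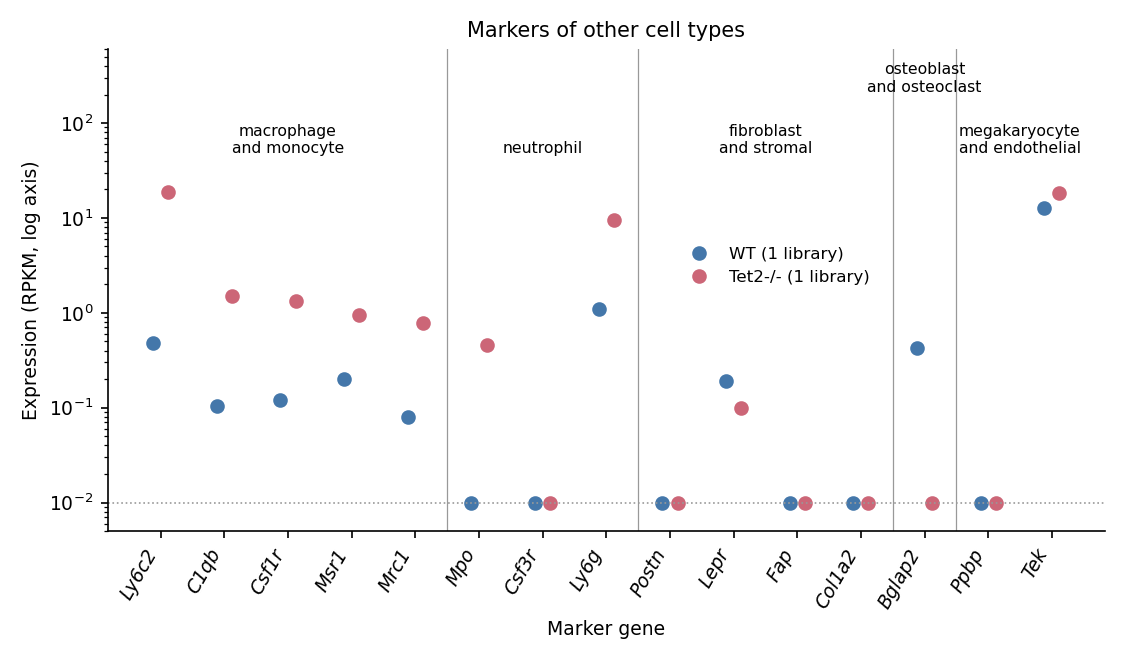
RPKM (log axis) of the listed markers of other cell types in the WT and the Tet2-/- library, 1 point per library and gene. The dotted line marks 0.01, read here as the value given to models without reads. The 5 macrophage and monocyte markers are higher in Tet2-/-, and Col1a2, Postn and Fap are at 0.01 in both.

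Listed mast cell markers, 5 of 21, were abundant in both libraries. Fcer1g, the gamma chain gene of the IgE receptor, was at 594 and 438 RPKM, the amine transporter gene Slc18a2 at 572 and 491 RPKM, and the prostaglandin synthase gene Hpgds at 68.9 and 66.5 RPKM. Mitf, a transcription factor gene, was at 31.3 and 30.9 RPKM. Mcpt8, a protease gene best known from basophils, was at 56.1 and 163 RPKM. It was the 1 of these 5 to lie 2-fold apart, where 4.51% of all models past the filter did.

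Few genes next to the members on the chromosome could be compared. Of 49 annotated protein-coding genes that start within 1 Mb of a member's start, 14 are listed and 9 passed the filter. Of these 9, 0 lay 2-fold apart on the log2(RPKM + 1) scale, where 4.51% of all 2107 models past the filter did. With so few genes that is near the share over all models and says nothing particular about the neighbours. No protein-coding gene is annotated that close to Cdh2. Near Dst, Rab23, a small GTPase gene, was at 4.30 and 4.85 RPKM, and Ptpn18, a phosphatase gene, at 83.4 and 79.4 RPKM. Near Palld the chloride transporter gene Clcn3 was at 8.18 and 8.52 RPKM, and near Spp1 the channel subunit gene Lrrc8b at 23.3 and 24.9 RPKM. Edil3, which starts 921 kb from Vcan, went the other way from it. Edil3 encodes a secreted matrix protein that binds integrins. It was at 0.601 RPKM in WT against 1.80 RPKM in Tet2-/-, 3.00 times as high (2.15 to 4.24), with a log2 fold of 0.81. Like Palld, Edil3 passed the filter through the Tet2-/- library alone, so it could pass only by differing. These neighbours were named after their values were seen.

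Of the members, 3 span 200 kb or more, namely Cdh2, Palld and Dst. Among the 69 protein-coding genes of at least that span past the filter, 3 (4.35%) counted as higher and 3 (4.35%) as lower, Palld and Cdh2 being among them. Among 1698 shorter genes the shares were 1.59% and 0.766%. Palld and Cdh2 were chosen for their differences, so counting them raises the shares of the long genes. The median log2 fold was 0.04 in the long genes and 0.01 in the others. These shares were computed after the members' spans were seen, and no test was made.

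For each member the 3 protein-coding genes closest in level were found by the distance between log2(RPKM + 1) values over the 2 libraries, which is a likeness of 2 numbers and no more. Closest to Cdh2 were Dgki at 35.5 and 9.13 RPKM (distance 0.13), Ryr3 at 32.8 and 11.2 RPKM, and Ncf1 at 54.2 and 10.8 RPKM. Closest to Vcan were Rgs13 at 9.48 and 4.45 RPKM (0.25), Fbxl21 and Snx25. Spp1 had Zfp36 at 7.47 and 30.1 RPKM (0.11), Glipr2 and Fam198b. Closest to Palld was Prex1 at 0.525 and 4.27 RPKM (0.24), and Gm20388 was also among its 3. Dst had Sgk1 at 2.52 and 1.03 RPKM (0.18), Pkp1 and Lin7b. Pkp1, a junction gene, was thus next to Dst in level in both libraries.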

How the data were processed

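RNA of bone marrow derived mast cells was sequenced from 1 WT and 1 Tet2-/- culture, with libraries from 1 µg of total RNA and an Illumina TruSeq kit, per the labels' protocols. The authors deposited 1 table of RPKM values, 1 column for each genotype, per the file headers. The submitters' processing notes name mm10 as the genome build. Aligner, counter, annotation and strand setting were not given in the sources used here. Reads of the opposite strand may thus be included. The value 0.01 stands for 58.1% of models in WT and 57.4% in Tet2-/-.

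Genes were located in GENCODE M21, of the same build. Of values above 0.1 RPKM, 73.7% in WT had over 6 digits where a gene has 2 or more annotated transcripts, against 1.21% with 1, so values of such genes may be sums over transcripts. For genes with 1 transcript, fragments were taken as RPKM times length (less 171 bases in WT and 179 in Tet2-/-) times depth. They came to a whole number within 0.1 for 94.8% of 500 WT genes and 94.7% of 524 in Tet2-/-. Only values of up to 6 digits that stood for few fragments were used. Depth and the bases taken off were chosen to make these shares as large as possible. A fixed setting would give 20% by chance, and the best of many settings gives more. No count test was run, since depth is inferred and each genotype has 1 library. Fragments of a gene were estimated from its shortest basic coding transcript of at least 400 bases, which gives the wider interval. Ratios carry an interval made from the fragment share by the exact Clopper-Pearson method. Fold changes use log2(RPKM + 1), which understates weak genes, with a minimum mean of 1 RPKM and 2-fold as a rule of size. The rule of size and the depth estimate were tested on simulated data.

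The named genes were the 5 members, genes of each pathway list past 2-fold and up to 4 more by mean level, marker genes reaching 1 RPKM, and the 3 genes closest to each member, of which 1 is not reported here. Listed genes at low levels were named in addition, after their values were seen. Members and lists were chosen with earlier results of these data known. The alternatives were pseudocounts of 0.1 and 5, no filter, a minimum mean of 5 RPKM, 1.5-fold, median-ratio scaling, and a restriction to coding genes of 500 bases or more. The tools were matplotlib 3.10.9, scipy 1.17.1, pandas 2.3.3, numpy 2.4.6 and Python 3.11.15.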

Additional observations from a re-analysis of the deposited data

How the results depend on the processing

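Of 15 alternative log2 folds of the 5 genes, 7 stayed within the counting interval of the main value as put on the log2(RPKM + 1) scale (-2.09 to -1.91 for Cdh2 and -1.04 to -0.61 for Dst), 8 moved out of it, and 0 changed direction, which neither a pseudocount nor a scaling shift of 0.01 could bring about at these sizes. With a pseudocount of 0.1 they were -2.10 for Cdh2, 3.33 for Palld and -1.21 for Dst. With a pseudocount of 5 they were -1.65 for Cdh2, -0.72 for Vcan, 1.41 for Spp1, 0.90 for Palld and -0.35 for Dst. The main counts over all models, 61 higher and 34 lower, became 33 and 14 with 5 added, 40 and 16 at a minimum mean of 5 RPKM, 123 and 76 at 1.5-fold, and 30 and 16 for coding genes of 500 bases or more. Of 70 alternative list medians, 61 stayed within 1.5-fold and 9 moved. With no filter, those of the cadherins and of the proteoglycans were 0, that of the macrophage markers 1.05 and that of the neutrophil markers 0.53. At a minimum mean of 5 RPKM the matrix glycoproteins, whose main median was -0.24, had 0.74. The macrophage and neutrophil markers, which have 1 gene each past the filter, had 5.03 and 3.02 with 0.1 added, 2.12 and 1.26 with 5 added. That macrophage marker, Ly6c2, passed the filter through the Tet2-/- library alone, so it could pass only by being higher there. No paired analysis was possible because there is 1 library of each genotype, and none could be left out. Depth limits the weakest genes, such as Cdh23, whose 0.0161 RPKM in Tet2-/- stands for about 5 fragments.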

Other observations

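Below the filter, the weakly expressed matrix and linker genes Ltbp1, Adamts17, Thbs1, Sync and Gpc4 had counting intervals excluding a ratio of 1. They went in both directions. The intervals of Cdh23 and Clstn3, from the cadherin list, left out 1 as well. Gpc4, a glypican gene, and Clstn3 each rest on an estimated 1 fragment in WT and 8 in Tet2-/-. The share of such intervals among all genes below the filter is not given here. Ltbp1, which encodes a binding protein of latent TGF-beta, was at 0.368 RPKM in WT against 0.106 RPKM in Tet2-/-, so that WT was 3.48 times as high, on an estimated 54 and 16 fragments. Adamts17, a matrix protease gene, was at 0.189 and 0.0760 RPKM on 34 and 14 fragments. Thbs1, the gene of thrombospondin-1, was at 0.0636 and 0.149 RPKM on 11 and 27 fragments. Sync, which encodes a partner of the intermediate filament protein desmin, was at 0.563 and 0.924 RPKM on 33 and 55 fragments. Chst13, a chondroitin sulfotransferase gene, was listed at 0.01 in WT and at 0.361 RPKM in Tet2-/-, for which no counting interval was made. These genes were picked after their values were seen.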
